A study of Mus musculus with 140 samples.

Results

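The silencers described here lie at the promoters of protein-coding genes. They are the autosomal intervals of a silencer list from mouse embryonic fibroblasts (MEFs) and of one from mouse embryonic stem cells (mESCs) whose midpoint fell within 1 kb of the 5 prime end of a protein-coding gene record (mm10, GENCODE M21 basic). The rule used position alone. It found 832 of 87806 autosomal MEF intervals (0.948%, 95% exact binomial interval 0.885 to 1.01) and 1129 of 112874 autosomal mESC intervals (1.00%, 0.943 to 1.06). Both lists held 204761 intervals in all, sex chromosomes included, of which 1961 were promoter silencers.

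A promoter is the stretch around a gene's start site where RNA polymerase is loaded. In mammals many promoters, above all those of broadly used genes, lie in CpG islands, which are rich in GC and in the CpG dinucleotide. Promoters of tissue-restricted genes are often AT-rich and hold few CpGs. A silencer is a DNA element that lowers transcription from a promoter, and Ss-STARR-seq looks for such elements by placing sheared genomic fragments in a reporter plasmid and sequencing the reporter RNA beside the plasmid library. The fragment is therefore read outside its own chromosome. A silencer at a promoter here is thus an interval at that place listed from the reporter assay. It is not a measured effect on the gene beside it.

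The labels describe 140 sequencing libraries made with genomic inserts of 300 to 400 bp. The input plasmid library, named hPGK-mouse-input, gave 20 of them, reporter RNA of MEFs gave 64 in 4 output sets, and reporter RNA of mESCs, spelled mECSs in the labels of the output libraries, gave 56 in 3 output sets. No genotype, treatment, time or age separates these groups. MEFs are primary connective tissue cells and were grown in serum medium. The culture text also names iCD1 medium for inducing MEFs, without saying whether any library came from induced cells. The mESCs are pluripotent cells and were grown in N2B27 with LIF and the inhibitors CHIR99021 and PD0325901. There was 1 list per cell type, made by the authors from these libraries, and its fold is their own value for each interval. Promoter silencers had a median length of 191 bp in both lists, so most of these intervals were shorter than the inserts. The labels tie the input libraries to both lists. The direction of the ratio behind the fold is unknown here, so a higher fold is not read as stronger silencing. Every listed fold lay above 2, so an interval missing from a list does not show that the cells lacked the activity. The files held no counts and no expression values. Depth behind an interval is therefore unknown, the cell types could not be checked against their markers, and no difference between the lists has a replicate check. Intervals given below cover counting error only.

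Sequences of promoter silencers are shown to give an idea of the DNA that was listed: AT-leaning stretches, beside genes of unrelated kinds. They are the 3 promoter silencers of either list with the highest lower fold among those found in both lists, and the 3 with the highest fold in each list among those found in that list alone, taken from intervals of at most 300 bp, touching no annotated exon and under 50% soft-masked repeat. Each is printed 5′ to 3′ on the strand of the gene (GRCm38.p6, the assembly that mm10 displays), with CpG in capitals. The first set, in both lists, lies in an intron of Ncam2, a neural cell adhesion gene (chr16:81201351-81201647, plus strand), upstream of Pip5k1a, a lipid kinase gene (chr3:95107451-95107601, minus strand), and in an intron of the pheromone receptor gene Vmn2r116 (chr17:23385066-23385366, plus strand).
Ncam2: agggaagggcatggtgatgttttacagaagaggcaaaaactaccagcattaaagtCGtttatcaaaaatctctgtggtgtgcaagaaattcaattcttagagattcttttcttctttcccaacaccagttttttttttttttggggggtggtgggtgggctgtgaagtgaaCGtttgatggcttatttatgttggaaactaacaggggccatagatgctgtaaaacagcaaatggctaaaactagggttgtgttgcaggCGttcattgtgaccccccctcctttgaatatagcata
Pip5k1a: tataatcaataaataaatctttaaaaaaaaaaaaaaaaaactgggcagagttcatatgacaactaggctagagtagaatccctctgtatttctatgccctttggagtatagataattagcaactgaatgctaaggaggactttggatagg
Vmn2r116: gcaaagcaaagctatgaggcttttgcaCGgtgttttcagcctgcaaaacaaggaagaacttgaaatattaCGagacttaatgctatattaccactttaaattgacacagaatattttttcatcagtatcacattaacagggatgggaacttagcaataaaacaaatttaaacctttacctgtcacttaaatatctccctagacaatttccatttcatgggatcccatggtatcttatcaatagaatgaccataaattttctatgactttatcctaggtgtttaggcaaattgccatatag
The MEF-only set lies upstream of Cd69, an early activation antigen of lymphocytes (chr6:129275965-129276015, minus strand), of the odorant receptor gene Olfr170 (chr16:19612521-19612671, minus strand) and of Zc3hc1, a gene for a zinc finger protein (chr6:30391387-30391437, minus strand).
Cd69: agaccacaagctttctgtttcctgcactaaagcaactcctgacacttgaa
Olfr170: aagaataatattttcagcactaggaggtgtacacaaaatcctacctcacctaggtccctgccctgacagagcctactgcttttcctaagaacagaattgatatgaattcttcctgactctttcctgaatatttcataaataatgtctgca
Zc3hc1: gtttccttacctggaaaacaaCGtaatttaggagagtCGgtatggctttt
The mESC-only set lies upstream of Tmem106b, a lysosomal membrane protein gene (chr6:13068976-13069051, plus strand), upstream of Ilf2, a gene for a double-stranded RNA binding protein (chr3:90475701-90475751, plus strand), and in an intron of Chrna6, an acetylcholine receptor subunit gene (chr8:27413401-27413601, minus strand).
Tmem106b: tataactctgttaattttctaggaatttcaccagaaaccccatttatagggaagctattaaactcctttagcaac
Ilf2: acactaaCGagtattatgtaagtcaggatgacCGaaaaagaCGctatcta
Chrna6: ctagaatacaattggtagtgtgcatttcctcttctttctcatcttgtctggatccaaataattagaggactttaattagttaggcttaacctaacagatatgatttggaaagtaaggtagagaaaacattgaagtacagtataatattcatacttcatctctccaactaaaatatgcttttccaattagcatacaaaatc
These 9 intervals, of 50 to 300 bp, held 0 to 3 CpGs each. The 50 bp intervals at Ilf2 and Zc3hc1 held 3 and 2, so CpGs were not sparse in all of them. GC content ran from 31.5% at Chrna6 to 44.0% at Cd69. Ncam2 had folds of 6.41 in the MEF list and 4.68 in the mESC list, Pip5k1a 4.25 and 6.55, and Vmn2r116 4.08 and 6.16. The MEF-only intervals had folds of 7.62 at Cd69, 5.22 at Olfr170 and 5.17 at Zc3hc1. The mESC-only intervals had folds of 13.6 at Tmem106b, 12.7 at Ilf2 and 12.5 at Chrna6.

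Promoter silencers were sparse at the start site itself and lay mostly on its upstream side. Their midpoints were upstream of the start in 544 of 832 MEF members (65.4%, 62.0 to 68.6) and 710 of 1129 mESC members (62.9%, 60.0 to 65.7), with median positions of -375.5 bp and -373 bp. Mean GC content was 47.7% in the 1 kb upstream and 53.4% in the 1 kb downstream, and ratios at equal GC content are given below. Only 109 MEF members (13.1%, 10.9 to 15.6) and 129 mESC members (11.4%, 9.63 to 13.4) fell within 250 bp of the start, a zone that makes up 25% of the window. The interval covered the start base in 38 MEF and 37 mESC members. Of these, 12 of the 38 and 11 of the 37 were at olfactory or vomeronasal receptor genes, and 3 in each list were at CpG-rich promoters. For comparison, such receptors were 159 of the 1570 genes with a promoter silencer of either list. A CpG-rich promoter, as defined below, was nearest to 37.4% of all MEF and 39.8% of all mESC members. The 3 highest folds among them in the MEF list were at the odorant receptor genes Olfr747 (4.81), Olfr1140 (4.67) and Olfr726 (3.74). In the mESC list they were at Tmem41b (6.78), a gene for a membrane protein of the endoplasmic reticulum, Olfr1140 (4.20) and Mucl1 (3.89).

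Counted in 200 bp tiles, the density of MEF silencers fell from 41.1 per Mb at 1000 to 800 bp upstream to 8.33 per Mb (5.77 to 11.6, exact Poisson) in the first 200 bp of the gene, and rose to 26.8 per Mb at 800 to 1000 bp downstream. The mESC list had the same shape, with 54.3, 10.8 (7.84 to 14.5) and 32.4 per Mb. Autosomal sequence over 1 kb from any start had 36.9 MEF and 47.4 mESC silencers per Mb. Over the whole promoter window the densities were 21.1 (19.7 to 22.6) and 28.6 (26.9 to 30.3) per Mb, 0.571 and 0.603 of those elsewhere. Tiles were placed by their centre, so these densities count 825 MEF and 1119 mESC members.

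As a density not matched for GC content, the trough was deepest at CpG-rich promoters. These were defined by a GC content of at least 50% and a CpG observed over expected of at least 0.6 in the 1 kb around the start, and made up 9512 of 20807 autosomal protein-coding genes. Their first 200 bp downstream held 1 MEF and 4 mESC silencers, or 0.543 (0.0137 to 3.03) and 2.17 (0.592 to 5.56) per Mb, where the mean GC content was 68.4%. At 1000 to 800 bp upstream of the same promoters there were 76 MEF and 112 mESC silencers, or 46.7 and 68.8 per Mb, at a mean GC content of 45.2%. CpG-poor promoters had a shallower trough, with 14.7 (33 silencers) and 17.9 per Mb (40 silencers) just downstream of the start against 36.9 and 43.4 per Mb at 1000 to 800 bp upstream. The upstream share was also larger at CpG-rich promoters, at 75.9% (70.7 to 80.5) of 311 MEF members against 59.1% (54.8 to 63.4) of 521 at CpG-poor ones, and 73.3% against 56.0% in the mESC list.

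**Figure D1:**
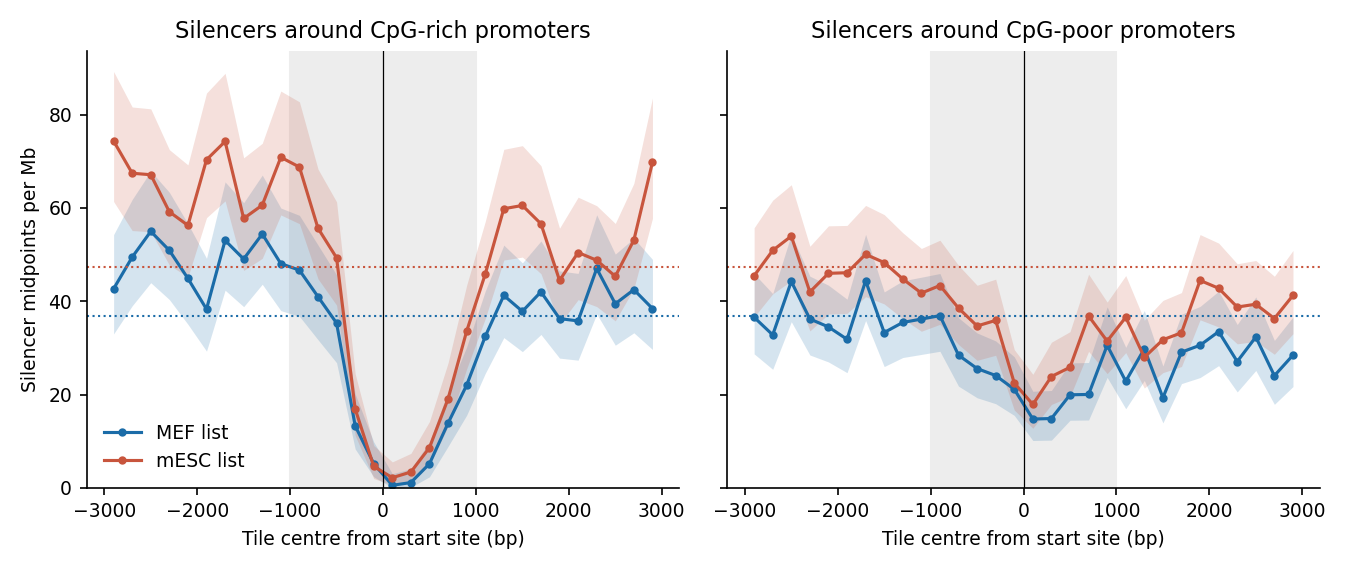
Silencer midpoints per Mb (vertical axis) in 200 bp tiles by the distance of the tile from the nearest protein-coding start site (horizontal axis, bp, upstream negative), for CpG-rich (left) and CpG-poor promoters (right). Bands are exact 95% Poisson intervals, dotted lines the density over 1 kb from any start, and grey marks the promoter window; both lists drop to 0.543 and 2.17 per Mb just downstream of CpG-rich starts.

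The flanks of CpG-rich promoters had a higher density than the rest of the autosomes. From 1 to 3 kb upstream of them the density was 48.6 (45.2 to 52.2) MEF and 65.8 (61.9 to 69.9) mESC silencers per Mb, above the 36.9 and 47.4 per Mb of the rest of the autosomes. The same flank of CpG-poor promoters held 36.5 and 46.9 per Mb.

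GC content moved with the density. Both lists peaked at 35 to 40% GC and fell steeply above 45%, inside and outside promoters. Tiles of 55% GC or more made up 32.5% of the promoter window but only 4.35% of the rest, and held 8 of the 825 MEF members (0.970%) and 29 of the 1119 mESC members (2.59%). At equal GC content the promoter window did not have a uniformly lower density. At 30 to 35% GC it held 46.3 (37.7 to 56.4) MEF silencers per Mb against 42.6 elsewhere, and 72.5 (61.6 to 84.9) mESC silencers against 56.2. At 45 to 50% GC it held 21.3 against 28.7 in the MEF list and 29.5 (25.7 to 33.8) against 39.0 in the mESC list. At 50 to 55% GC it held 10.7 (8.26 to 13.6) against 14.9 and 11.8 (9.26 to 14.9) against 23.8. At 55 to 60% GC the values were 1.62 (0.653 to 3.35) against 5.63 and 5.34 (3.38 to 8.01) against 10.3. When the rest of the autosomes was weighted to the GC content of the promoter window, a comparison added after the values were seen, the window held 0.887 (0.827 to 0.949) of the MEF density and 0.901 (0.849 to 0.956) of the mESC density in place of 0.571 and 0.603. Weighting to soft-masked repeat as well gave 0.953 (0.889 to 1.02) and 1.01 (0.951 to 1.07). Within 400 bp of the start the ratio at equal GC content was 0.718 (0.622 to 0.825) and 0.701 (0.620 to 0.790). With repeat class as well it was 0.803 (0.696 to 0.923) and 0.834 (0.737 to 0.940). Within 200 bp of CpG-rich starts the ratio at equal GC content was 0.656 (0.315 to 1.21) and 0.462 (0.239 to 0.807). For CpG-poor starts it was 0.780 (0.618 to 0.971) and 0.648 (0.521 to 0.796), and the counting intervals of the classes overlapped in each list. In the 1 kb upstream the ratio at equal GC content was 0.981 (0.899 to 1.07) and 0.988 (0.916 to 1.06). In the 1 kb downstream it was 0.7555 (0.672 to 0.847) and 0.785 (0.7115 to 0.864). With repeat class the upstream values were 1.03 and 1.07, and the downstream values 0.837 (0.744 to 0.938) and 0.9185 (0.832 to 1.01). From 1 to 3 kb upstream of CpG-rich promoters the ratio at equal GC content was 1.43 (1.33 to 1.53) and 1.49 (1.40 to 1.59). How well fragments of each GC content were represented in the input library was not tested.

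**Figure D2:**
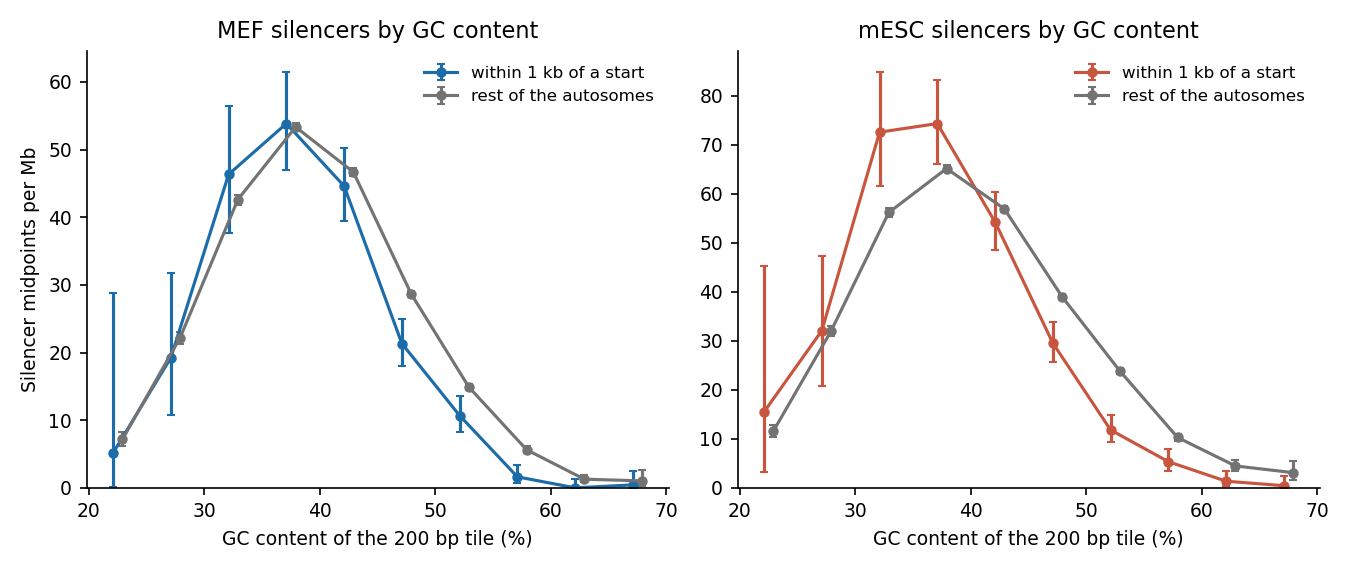
Silencer midpoints per Mb (vertical axis) by the GC content of 200 bp tiles (horizontal axis, bins of 5 percentage points up to 70%) for MEF (left) and mESC silencers (right), within 1 kb of a protein-coding start (colour) and in the rest of the autosomes (grey), with exact 95% Poisson intervals. Both curves of each list fall above 45% GC, and the promoter curve lies lower there (21.3 against 28.7 MEF silencers per Mb at 45 to 50%).

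Counted by gene, 823 of 20807 autosomal protein-coding genes (3.96%) had a MEF silencer at the promoter and 1096 (5.27%) had an mESC silencer. Either list marked 1570 genes (7.55%) and both marked 349. Of the genes with a MEF promoter silencer 42.4% (39.0 to 45.9) also had an mESC one, and of those with an mESC promoter silencer 31.8% (29.1 to 34.7) had a MEF one. The share fell with the GC content of the promoter. An interval within 1 kb of more than 1 start, as 36 MEF and 46 mESC members were, counted for each of those genes. Promoters were put into 5 classes of equal size by GC content. In the class with the least GC, 25.5 to 45.8% over 1 kb, the share was 5.98% (5.28 to 6.75) for MEF and 7.95% (7.15 to 8.82) for mESC silencers. In the class with the most, 62.7 to 80.8% GC, it was 77 of 4162 promoters (1.46 to 2.31%) and 106 of 4162 (2.55%, 2.09 to 3.07). CpG-rich promoters as a class had a MEF silencer in 3.47% (3.11 to 3.86) and an mESC silencer in 4.80% (4.38 to 5.25), and CpG-poor promoters in 4.36% (4.00 to 4.76) and 5.66% (5.24 to 6.10). That ordering depends on the window. The ratio of CpG-rich to CpG-poor promoters was 0.795 (MEF) and 0.849 (mESC) at 1 kb, 0.371 and 0.412 at 500 bp, and turned to 1.12 and 1.18 at 2 kb, where the flanks of CpG-rich promoters are counted. It also depends on GC content. Against the rest of the autosomes at equal GC content, the 1 kb window held 1.02 (0.910 to 1.14) of the MEF and 1.07 (0.970 to 1.17) of the mESC density at CpG-rich promoters, and 0.823 (0.753 to 0.897) and 0.820 (0.759 to 0.883) at CpG-poor ones. With repeat class as well these were 1.13 and 1.25 at CpG-rich and 0.873 and 0.899 at CpG-poor promoters. Promoters shared head to head by 2 genes carried a MEF silencer in 3.45% (2.57 to 4.53) and an mESC silencer in 4.42% (3.42 to 5.61) of 1448 genes, against 3.99% and 5.33% of other genes.

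In base composition, promoter silencers lay nearer to other silencers than to promoters. Their mean GC content was 41.0% in each list (SD 7.13 over 832 MEF and 7.88 over 1129 mESC members), against 40.1% and 40.3% for all autosomal intervals and 50.8% for 300 bp windows tiled over all promoters. Soft-masked repeat made up 33.2% of the MEF and 34.9% of the mESC members, against 38.4% and 40.8% for all intervals and 16.5% for the promoter tiles. CpG content was also nearer to that of other silencers. In 300 bp windows centred on the members there were 1.21 (MEF) and 1.25 (mESC) CpGs per 100 bp, above the 0.751 and 0.748 of all intervals and below the 3.36 of the promoter tiles. Midpoints lay between genes in 439 MEF and 582 mESC members and in introns in 318 and 454. UTRs held 36 and 44, exons of noncoding genes 29 and 32, and coding exons 10 and 17. The median length was 191 bp in both lists, against 200 bp for all intervals, and 20.0% of MEF and 20.6% of mESC members were 50 bp long against 16.3% and 15.8%. Members just inside the window, 800 to 1000 bp from the start, numbered 257 and 322 with median folds of 2.36 and 2.37. Those just outside, at 1000 to 1200 bp, numbered 262 and 353 with median folds of 2.28 and 2.36.

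Several promoter motifs had shares between those of all silencers and of promoters. In all, 19 short motifs were searched on both strands of the 300 bp windows, and a match is a description of letters, not of binding. The GC box bound by SP and KLF factors (GGGCGG) was in 7.81% (6.08 to 9.85) of MEF and 8.06% (6.54 to 9.80) of mESC members, against 2.57% and 2.85% of all autosomal intervals and 22.6% of promoter tiles. Within the listed intervals themselves, which are mostly shorter than the windows, it was in 3.85% and 5.31% of members against 1.90% and 2.25% of all intervals. The ETS motif CCGGAAG was in 1.44% and 1.59% of members, 0.592% and 0.563% of all intervals and 4.51% of tiles. The E2F motif GGCGGGAA, whose letters can overlap those of the GC box, was in 0.721% and 0.797% of members, 0.219% and 0.257% of all intervals and 1.54% of tiles. The motif TCTCGCGAG read by ZBTB33, a methyl-CpG binding repressor, was in 0 of 832 and 0 of 1129 members, which allows up to 0.442% and 0.326%, against 0.00228% and 0.00354% of all intervals and 0.216% of promoter tiles. With 0 matches its shares could not be placed between those of silencers and promoters. The cyclic AMP response element TGACGTCA was in 0 MEF members and 1 mESC member (0.0886%), against 0.124% and 0.0992% of all intervals and 0.640% of tiles, so its shares did not lie between those of silencers and promoters. These motifs each contain CpG, so they are not independent of CpG content. AT-leaning motifs ran the other way. The TATA box letters TATAAA were in 30.5% (27.4 to 33.8) of MEF and 27.9% (25.3 to 30.6) of mESC members, 34.0% and 35.4% of all intervals and 14.9% of tiles. The octamer ATGCAAAT, read by POU factors such as the pluripotency factor OCT4, was in 1.68% (0.923 to 2.81) of MEF and 0.886% (0.426 to 1.62) of mESC members. All intervals had 2.52% in each list and tiles 1.39%, so the mESC share did not lie between them. The MEF counting interval included the value of all MEF intervals. The SOX letters ACAATG were in 13.5% (11.2 to 16.0) and 14.4% (12.4 to 16.6) of members, against 18.5% and 18.2% of all intervals and 11.8% of tiles. The AP-1 letters TGANTCA were in 7.45% (5.76 to 9.45) and 6.82% (5.42 to 8.45), against 9.27% and 8.18% of all intervals and 6.82% of tiles. Both AP-1 counting intervals included the value of all intervals.

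The share of promoter silencers found in both cell types was below that of silencers in general. Of the MEF members 347 (41.7%, 38.3 to 45.1) overlapped an mESC interval by at least 1 bp, against 47.2% of all autosomal MEF intervals. Of the mESC members 340 (30.1%, 27.4 to 32.9) overlapped a MEF interval, against 36.6%. The members' share was the lower one in every length class, for example 29.0% (23.8 to 34.6) against 32.3% at 50 to 100 bp and 59.0% (51.0 to 66.7) against 61.6% over 300 bp in the MEF list, though the counting interval in each of the 4 MEF classes included the value of all MEF intervals. In the mESC list it lay below the value of all intervals at 50 to 100 bp (17.2%, 13.7 to 21.2, against 21.24%) and for lengths over 200 and up to 300 bp (36.5%, 30.0 to 43.4, against 44.5%). It was also lower among members under 50% repeat, at 39.0% against 43.9% in MEFs and 28.8% against 35.7% in mESCs, and among those above, at 48.5% against 53.7% and 33.1% against 38.1%. By distance, 37.6% (28.5 to 47.4) of MEF members within 250 bp of the start and 43.7% (38.1 to 49.3) of those at 750 to 1000 bp overlapped the other list. In the mESC list these were 27.1% and 30.7%, and the counting intervals of near and far members overlapped in both lists. Of the members, 40 in each list had the same coordinates as an interval of the other.

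**Figure D3:**
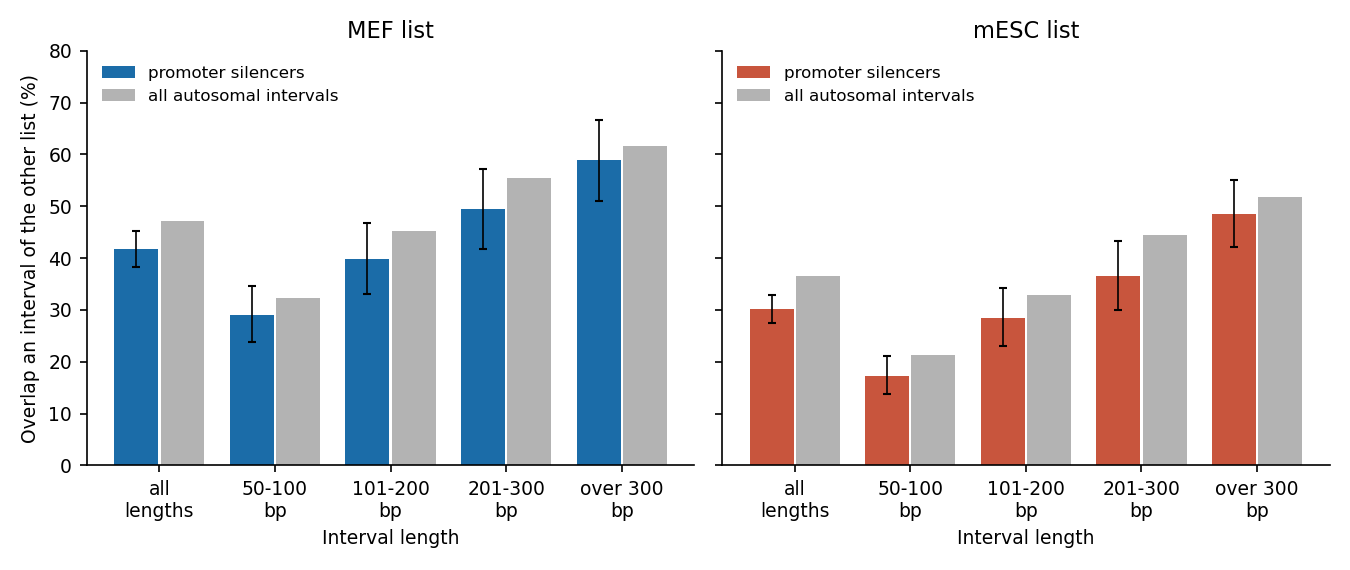
Percent of intervals that overlap an interval of the other list (vertical axis) by interval length (horizontal axis) for the MEF (left) and mESC list (right). Coloured bars are promoter silencers with exact 95% binomial intervals and grey bars all autosomal intervals; the promoter bar is the lower one in each pair (41.7% against 47.2% over all MEF lengths).

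The authors' median folds of promoter silencers were close to those of the lists they came from, while the share of high folds was lower in the MEF list. The median fold was 2.33 (2.29 to 2.36) in the MEF list against 2.36 for all autosomal intervals, and 2.37 (2.34 to 2.42) in the mESC list against 2.41. A fold above 4 was listed for 32 MEF members (3.85%, 2.65 to 5.39), against 5.72% of all MEF intervals, and for 88 mESC members (7.79%, 6.30 to 9.52), against 7.78%. Members found in both lists had median folds of 2.43 (MEF) and 2.55 (mESC), and those in one list alone 2.25 and 2.31. Over the 347 overlapping MEF members, Spearman's rho between the fold and that of the overlapping mESC interval was 0.455 (0.491 for Pearson's r of log2 folds), a description only, since the lists share their input libraries.

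**Figure D4:**
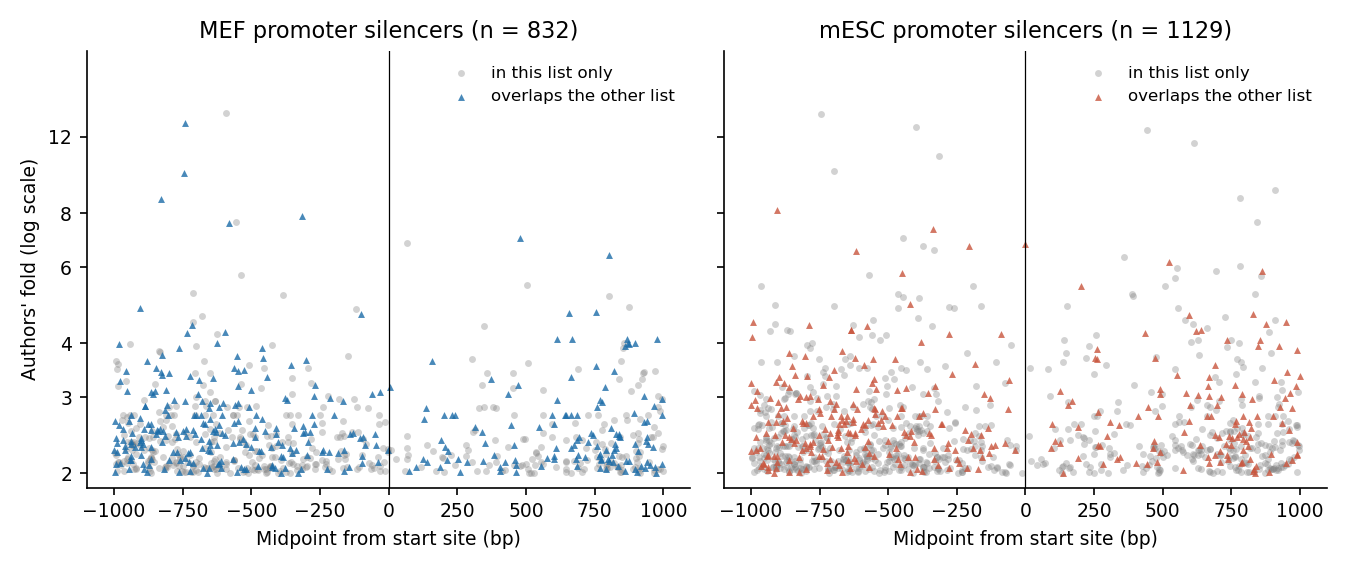
The authors' fold (vertical axis, log scale) of every promoter silencer by the distance of its midpoint from the start site (horizontal axis, bp, upstream negative) in the MEF (left, 832 members) and mESC list (right, 1129 members). Coloured triangles overlap the other list and grey points do not; points thin out just downstream of the start, and most folds lie under 4.

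The highest MEF fold, 13.6, was 592 bp upstream of Gemin2, a gene of the complex that assembles spliceosomal particles (chr12:59012751-59012851), with no mESC interval over it. Next came Gm9008 (12.9, and 3.84 in mESCs), BC035044 (9.90 and 2.71), the odorant receptor gene Olfr1412 (8.62 and 3.74) and Npl (7.90 and 7.36), a gene for an enzyme of sialic acid breakdown. In 4 of these 5 the interval was therefore in both lists, against 347 of all 832 MEF members (41.7%). At Npl the folds were nearly equal, in sequence that was 100% soft-masked repeat. Skint5, a gene of an immunoglobulin-like family, followed Gemin2 and Cd69 among MEF-only members with a fold of 6.81.

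The 5 highest mESC folds were all in the mESC list alone, as were 789 of all 1129 mESC members. These 5 were at Tmem106b (13.6), Ilf2 (12.7), Chrna6 (12.5), the pheromone receptor gene Vmn1r19 (11.6) and Cdca8 (10.8). Cdca8 is a gene for a subunit of the chromosomal passenger complex that acts in mitosis. Of the intervals in both lists the one with the highest lower fold was again at Npl, followed by Eapp (4.83 in MEFs and 8.13 in mESCs), Ncam2, Sirpb1b (4.70 and 4.29) and Pip5k1a. The 5 highest MEF and the 5 highest mESC folds lay at different genes, and no member was among the 5 highest of both lists. These are 5 of 832 MEF and 5 of 1129 mESC members, and the contrast is a description only.

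Of the 20807 promoters 19237 held no silencer of either list, and most marked promoters held 1 per list. Only 46 genes had 2 or more MEF and 74 had 2 or more mESC intervals, and 3 were found at 1 gene in the MEF list and at 7 in the mESC list. Gm5141 held 3 MEF intervals, with folds of 3.99, 3.12 and 2.72, and 2 mESC intervals, with 3.93 and 2.49. Polr1a, the gene for the largest subunit of RNA polymerase I, held 3 mESC intervals (3.70, 2.44 and 2.32) and 2 MEF intervals (3.31 and 2.15) in intron sequence, and all 5 overlapped the other list. Tcp1, a gene for a subunit of the cytosolic chaperonin, held 3 mESC intervals with folds of 5.42, 3.42 and 2.58 and no MEF interval. Rexo2, a mitochondrial exonuclease gene, held 3 mESC intervals, of which the one with a fold of 2.15 overlapped its single MEF interval (2.08). Rad21l, a meiotic cohesin gene, had 3 mESC folds of 3.94, 2.53 and 2.34 and 1 MEF fold of 2.84. N4bp2l2 had 3 mESC intervals, with folds from 2.00 to 4.82, and none in MEFs. In the MEF list Cd69, Olfr170, Sept14 and Zc3hc1 held 2 intervals each, and of these genes only Cd69 had an mESC interval (4.02).

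Genes were then read by family. The 28 lists were taken by symbol or by name, and the share of their genes with a promoter silencer of either list is set against the 7.55% of all autosomal protein-coding genes. The chemosensory receptors, known mainly from sensory neurons of the nose, formed the largest group. Olfactory receptors had a MEF silencer at 75 and an mESC silencer at 89 of 1128 promoters (6.65% and 7.89%), and at 128 (11.3%, 9.56 to 13.3) in either list. Vomeronasal type 1 receptors had 8, 17 and 20 of 208 (9.62% in either list, 5.97 to 14.5) and type 2 receptors 6, 8 and 11 of 119 (9.24%, 4.71 to 15.9). Their promoters are AT-rich, with 1 CpG-rich promoter among all 1455. Among promoters of the class with the least GC, 11.0% (9.35 to 12.7) of 1369 receptor genes and 11.1% (9.96 to 12.3) of 2793 other genes had a silencer in either list. The share of the receptor genes was thus close to that of other promoters in that class. Olfr1469 held a MEF interval of 3.03 and mESC intervals of 6.70 and 3.70, and Vmn2r9 held 2 MEF intervals (2.46 and 2.17) and 3 mESC intervals (3.07, 2.81 and 2.42). Vmn1r233 (5.21) and Vmn1r181 (4.34) were marked in mESCs alone.

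Cytosolic ribosomal protein genes had the highest share of the lists with at least 30 genes, although 85.0% of their 80 promoters were CpG-rich. A MEF silencer lay at 10 (12.5%, 6.16 to 21.8) and an mESC silencer at 7 (8.75%, 3.59 to 17.2), and 14 (17.5%, 9.91 to 27.6) had either, against 6.77% of all CpG-rich promoters. The list was 1 of 28, and its median folds, 2.34 in MEFs and 2.45 in mESCs, were near the lists' own. Rps24 had the highest fold, 5.14 in MEFs at 801 bp inside the gene. Rpl24 followed with 4.21 in MEFs at 624 bp upstream, and Rps9 with 3.51 in mESCs at 729.5 bp upstream. Both lists marked Rpl32 (2.91 in MEFs and 2.48 in mESCs), Rpl41 (2.59 and 2.45) and Rpl11 (2.08 and 2.22). The remaining MEF folds were 2.49 at Rplp0, 2.20 and 2.06 at Rps10, 2.15 at Rps25, 2.11 at Rpl13 and 2.08 at Rpl6, and the remaining mESC folds 2.51 at Rps29, 2.36 at Rps19 and 2.28 at Rpl35. None of these intervals covered a start site.

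Other lists, taken mostly as broadly used genes, had smaller counts, and how broadly each gene is used was not tested. Of 49 genes with proteasome symbols 3 had a MEF and 6 an mESC silencer, 7 in all (14.3%, 5.94 to 27.2). Among them were Psmd7, a lid subunit (5.19 in mESCs), Psmb11 (3.48 in mESCs) and Psmd5, an assembly factor (3.44 in MEFs and 2.98 in mESCs). Psmc3ip, which the symbol pattern also takes in, is no proteasome subunit. Mitochondrial ribosomal proteins had 8 of 78 (10.3%, 4.53 to 19.2), led by Mrpl9 (3.50 in MEFs) and Mrpl44 (3.37 in mESCs). Of 67 replication-dependent histone genes 7 (10.4%, 4.31 to 20.4) were marked, 2 in MEFs and 5 in mESCs, led by Hist1h4f (3.45 in MEFs) and an mESC interval of 2.71 that lay within 1 kb of both Hist1h3f and Hist1h2bh. Of 18 housekeeping genes Sdha, a subunit of succinate dehydrogenase, and Atp5b, a subunit of ATP synthase, were marked, each in both lists. At Sdha the MEF (2.86) and mESC members (3.91) were different intervals that did not overlap, and the MEF one overlapped another mESC interval (4.38). At Atp5b overlapping intervals had folds of 2.24 (MEF) and 2.03 (mESC).

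The lists of chromatin and cell identity genes held 0 to 4 marked genes each, and their counts are too small to be set apart from the 7.55% of all genes. Of 38 chromatin repressor genes none had a MEF promoter silencer, which allows up to 9.25%, and 4 had an mESC one (10.5%, 2.94 to 24.8). These were Chd4, a remodeller of the NuRD complex (fold 2.63), the Polycomb methyltransferase gene Ezh1 (2.53), the histone methyltransferase gene Ehmt1 (2.13) and Rnf2, the Polycomb ubiquitin ligase gene (2.05). Of 32 pluripotency genes only Zfp281, a zinc finger factor of stem cells, was marked, at 2.47 in MEFs and 2.01 in mESCs, and of 34 fibroblast genes only Cdh2, the N-cadherin gene, at 2.71 in mESCs. Among 76 Sox, Fox, Tbx and Gata genes 2 (2.63%, 0.320 to 9.19) had a silencer, Foxj3 (3.50 in MEFs and 4.38 in mESCs) and Foxd4 (2.72 in MEFs). Of 39 Hox genes Hoxa3 alone had one (2.50 in MEFs). Collagen genes had 0 of 43, which allows up to 8.22%, and the cell cycle brakes 0 of 20, which allows up to 16.8%. Imprinted genes had 3 of 36 in either list. Dlk1, a Notch-like ligand gene expressed from the paternal copy, and Snrpn, a paternally expressed spliceosomal gene, were marked in mESCs alone with folds of 6.70 and 5.42, and Peg10 in MEFs alone with 2.00. Of 30 genes listed here as germline 3 were marked in either list. They were Sycp1, a component of the synaptonemal complex (3.93 in MEFs and 5.87 in mESCs), Hormad1, a gene of meiotic chromosome axes (2.48 in MEFs), and Taf7 (2.02 in mESCs). Germline expression of these genes was not tested.

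The remaining lists lay around the background. Of 98 cytochrome P450 genes 12 (12.2%, 6.49 to 20.4) had a silencer in either list, led by Cyp2t4 (4.42 in mESCs). In both lists 0 of the 98 had one, beside 1.68% of all autosomal protein-coding genes, a share too small to be told from 0 here. Interferon-induced symbols gave 7 of 64 (10.9%, 4.51 to 21.2), with Ifi213 at 4.08 in MEFs and 3.35 in mESCs. The 7 include Irf2bpl (2.39 in MEFs and 2.75 in mESCs), which was taken in by its symbol alone. Defensins had 6 of 64 (9.38%, 3.52 to 19.3), keratins and keratin-associated proteins 8 of 110 (7.27%, 3.19 to 13.8) and serpins 1 of 60, Serpinb13, at 2.25 in MEFs and 5.42 in mESCs. Zfp genes, which encode zinc finger proteins, had 31 of 385 (8.05%, 5.54 to 11.2), led by Zfp157 (5.72) and Zfp112 (4.91), both in mESCs alone, and Zscan genes had 2 of 19. Solute carriers had 25 of 372 (6.72%, 4.40 to 9.76), with Slc22a30 at 8.67 and Slc10a2, the ileal bile acid transporter gene, at 4.88 and 2.50, all in mESCs. Potassium channels had 4 of 92 (4.35%, 1.20 to 10.8), Trim genes 3 of 68 (4.41%, 0.919 to 12.4) and taste receptors 1 of 38, Tas2r121. With intervals this wide, the shares of these small lists could not be told from that of all genes at these counts.

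**Figure D5:**
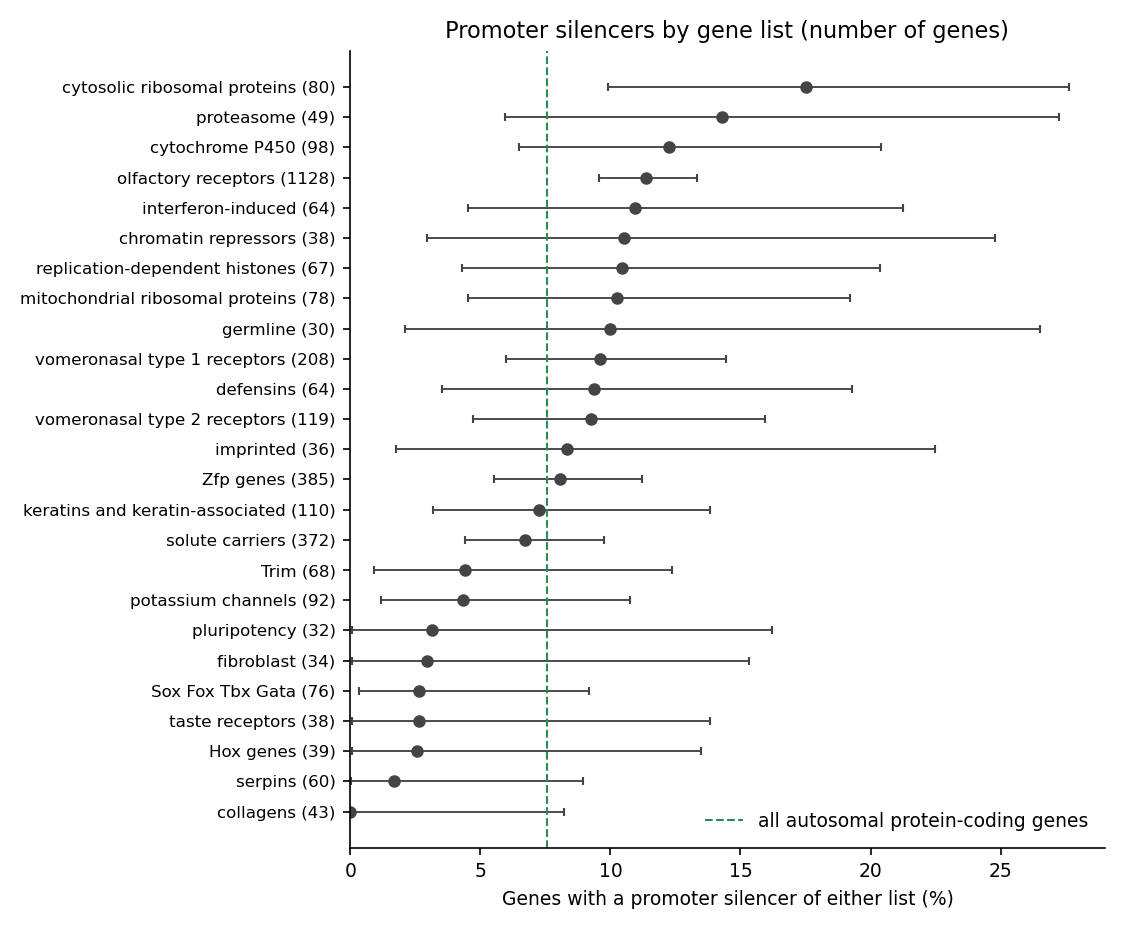
Percent of genes with a promoter silencer of either list (horizontal axis) for the gene lists with at least 30 genes (rows, number of genes in parentheses), with exact 95% binomial intervals. The dashed line marks the 7.55% of all autosomal protein-coding genes; only the intervals of the cytosolic ribosomal proteins (17.5%) and the olfactory receptors (11.3%) lie wholly above it.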

How the data were processed

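The authors deposited 1 interval list per cell type with a fold per interval, a linear ratio per the file headers. Its numerator, its scaling and the peak caller are not stated in the labels. Bowtie2 and SAMtools were used, per the submitters' processing notes, which name the build hg38, whereas the design text names mm10. No autosomal interval ended beyond an mm10 chromosome (0 in both lists), and mm10 was used. Positions are printed as deposited and may be off by 1 bp. Values per library were not analysed here.

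Python 3.11.15, NumPy 2.4.6, pandas 2.3.3 and SciPy 1.17.1 were used with GRCm38.p6 sequence and GENCODE M21 basic. Intervals were joined to start sites by midpoint. Shares carry exact (Clopper-Pearson) binomial, densities exact Poisson intervals at 95%. Medians carry order-statistic intervals. Weighting the rest of the autosomes to the GC and repeat content of promoters was chosen after the values were seen, and the other alternatives are given in the closing section. No test was run, since intervals and genes are not replicates. The joins were tested on simulated intervals with known positions. The members and lists were chosen with earlier results of these data known. The named genes were the 5 members of each list with the highest fold, the 5 promoters with most members, the 5 shared members with the highest lower fold, the 3 list-only members and the 3 members over a start with the highest fold, and up to 3 genes per gene list. Promoters of further ribosomal protein, receptor and chromatin genes were named after their values were seen.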

Additional observations from a re-analysis of the deposited data

How the results depend on the processing

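The upstream share stayed above 50% in both alternatives run for it (starts of any transcript and high fold). The members' overlap with the other list stayed below that of all intervals in the 7 alternatives run for it. Of 48 alternative values 21 stayed within the counting interval of the main value (counts of members within 1.5 times). Starts of any protein-coding transcript raised the genes marked to 5.23% (MEF) and 6.95% (mESC) and lowered the upstream share to 60.5% and 58.9%. The overlap share was 38.3% of MEF members with a 500 bp window and 33.8% of mESC members with 2 kb. It was 33.2% and 24.1% for overlap of 50% of both intervals, 48.6% and 36.9% for midpoints within 1 kb, and 49.4% and 39.1% for members at or above the median fold, beside 55.1% and 43.0% of all such intervals. With 500 bp the median fold was 2.27 and 2.34. The ratio of CpG-rich to CpG-poor promoters was 0.371 and 0.412 at 500 bp and reversed to 1.12 and 1.18 at 2 kb. Members at or above the median fold had 40.3% and 39.97% GC and, in mESCs, 39.4% repeat; 28.3% and 30.5% of members were at least 50% repeat. The density ratio, 0.571 and 0.603, was 0.887 and 0.901 at equal GC, and 0.953 and 1.01 with repeat class, both added after the values were seen. The intervals with repeat class, 0.889 to 1.02 for MEF and 0.951 to 1.07 for mESC, both include 1. Of 38 motif shares 16 stayed within the counting interval of the main value in the listed interval itself, 35 in windows under 50% repeat and 35 at high fold. Of the same 38, 35 kept their side of all intervals in the listed interval itself, 35 under 50% repeat and 34 at high fold. No paired analysis was possible because each cell type has 1 pooled list. No library could be left out for the same reason. The depth behind an interval is unknown.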
